A study of Mus musculus with 6 samples.

Results

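The genes described here carry the signal inside a megakaryocyte or platelet from a rise in calcium to the activation of integrins. They were chosen by name, as every probe set of the array that the platform annotation assigns to 1 of Rasgrp2, Rap1a, Rap1b, Rasa3, Fermt3, Tln1, Apbb1ip, Stim1 and Orai1 and to no other gene. That gave 23 probe sets for the 9 genes, among 45101 probe sets and 18193 named genes on the array, and 0 further probe sets paired a member with another gene. The levels come from 6 arrays of mouse megakaryocytes, which shed platelets into the blood. Fetal liver cells were grown with the hormone thrombopoietin and enriched for mature megakaryocytes on an albumin gradient. All mice were of a mixed C57BL/6xSv129 background. The gene Zfpm1 encodes FOG1, a partner protein of GATA transcription factors. The control group held 3 arrays, of which replicates 1 and 2 were FOG1+/- and replicate 3 was FOG1+/+. The other 3 arrays came from cultures labelled FOG1-/- ki/ki, called FOG1 ki/ki here. The labels do not say what the knocked-in allele changes, nor whether cultures were pooled from several fetuses, so the p-values measure only the spread between these cultures. The question is how the transcripts of this pathway differ between FOG1 ki/ki and control megakaryocytes.

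Integrins on a resting platelet hold a low-affinity shape and are switched on from inside the cell. STIM1 senses the calcium store and opens the ORAI1 channel. Calcium activates the exchange factor CalDAG-GEFI, the product of Rasgrp2, which loads the small GTPase RAP1 with GTP. The GTPase-activating protein RASA3 returns RAP1 to the GDP form. Active RAP1 brings talin, encoded by Tln1, to the tail of the integrin beta chain, partly through the adaptor RIAM, encoded by Apbb1ip, and kindlin-3, encoded by Fermt3, binds the same tail.

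None of the 9 genes passed the test between FOG1 ki/ki and control. On the scale of signal + 16, a probe set of Rasgrp2 read at 0.55 times control (log2 difference -0.86, SE 0.25, n = 3 arrays per group) and that of Rasa3 at 0.649 times (-0.62, SE 0.23), and the probe sets of Stim1 had log2 differences of -0.59 and -0.56. In their brightest probe sets, Rap1b, Tln1, Fermt3 and also Rasgrp2 (0.02) lay within 0.1 of control on the log2 scale. Without both replicate 2 arrays the Stim1 differences were -0.79 and -0.81, larger than those of Rasgrp2 1438932_at (-0.67) and Rasa3 (-0.53), so the order of these genes is not settled. With limma (log2 of signal + 16, Benjamini-Hochberg adjustment over all probe sets, threshold 0.05), 0 of the 23 probe sets passed, and the adjusted p ran from 0.675 to 0.9998. Over all 45037 probe sets tested 1 passed, which is 0.00222%. Before adjustment, p was under 0.05 for 2 members, Rasgrp2 1438932_at and Rasa3, a share of 8.7% beside 5.06% over the array. The labels number the cultures 1 to 3 in both groups, and same-numbered arrays deviated together, so values within equal numbers are given as pairs. With the replicate number as a block, 0 members passed (adjusted p from 0.323 to 0.965) and before adjustment 4 were under 0.05, a share of 17.4% beside 9.87% over the array. The blocked fit called 0.0% of all probe sets.

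A place in the brighter 50% of the array does not by itself show good measurement. Rap1gap, with signals from 3.73 to 13.6, also lay there. Of the 23 probe sets, 22 lay in the brighter 50% of the array by mean. In that subset tested alone, 0 of the 22 passed without the block (0.0666% of 22518 called) and 0 with it (0.524% called). The standard error of the group difference ran from 0.132 to 0.479 on the log2 scale among these 22, with a median of 0.24. The groups overlapped for 18 of the 23. For 3 probe sets, 2 of Rasgrp2 and 1 of Stim1, FOG1 ki/ki lay wholly below control, 13% of the 23 against 4.7% of all probe sets. For 2 probe sets, 1 of Orai1 and 1 of Tln1, it lay wholly above, 8.7% against 4.56%. Probe sets of 1 gene are not independent counts.

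**Figure D1:**
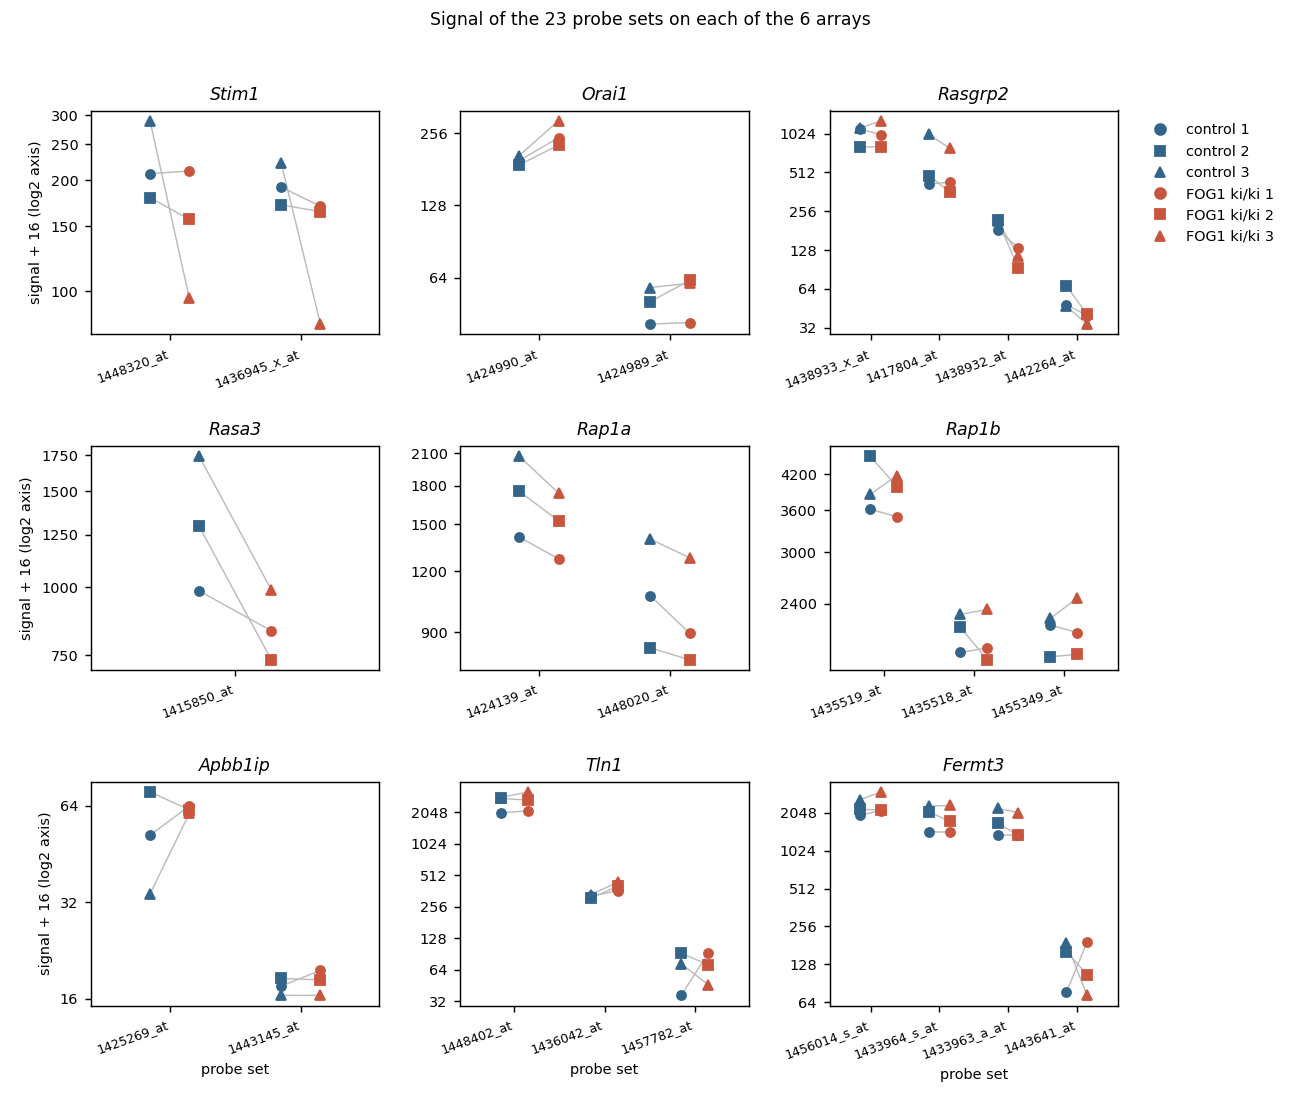
Signal + 16 on a log2 axis for each of the 23 probe sets, 1 panel per gene, with the 3 control arrays in blue and the 3 FOG1 ki/ki arrays in red. Marker shapes give the replicate number and grey lines join same-numbered arrays. Rasa3, 2 of the 4 Rasgrp2 probe sets, both of Rap1a and 1436945_x_at of Stim1 lie lower in FOG1 ki/ki in all 3 pairs. Levels of different probe sets cannot be compared with each other.

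Stim1, the calcium sensor of the endoplasmic reticulum, stood lower in FOG1 ki/ki mainly through the replicate 3 pair. Its brighter probe set, 1448320_at, read 192.5, 163 and 274 in control replicates 1, 2 and 3 and 196, 140.5 and 79.5 in FOG1 ki/ki replicates 1, 2 and 3. The groups overlapped, and FOG1 ki/ki replicate 3 was the low array. The log2 difference was -0.59 (SE 0.35, limma adjusted p = 0.9998), made of pair differences of 0.02, -0.20 and -1.60. The second probe set, 1436945_x_at, read 175.5, 155 and 207 in controls and 154, 148 and 65.3 in FOG1 ki/ki. Here the groups did not overlap, with a log2 difference of -0.56 (SE 0.34, adjusted p = 0.9998), and again the third pair gave most of it, at -1.45 against -0.17 and -0.06. Without FOG1 ki/ki replicate 3 the differences were -0.28 and -0.22, and without both replicate 3 arrays -0.09 and -0.12. Leaving out only control replicate 3, the FOG1+/+ array, gave -0.40 and -0.46. FOG1 ki/ki replicate 3 also had the highest ratios of 3' to 5' control probe set signal, 2.38 for Gapdh and 2.76 for beta-actin, against at most 1.86 and 2.11 on the other 5. Their part in the result was not tested.

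Orai1, the plasma membrane channel that STIM1 opens, lay on the other side of control. Its brighter probe set, 1424990_at, read 181, 173 and 191 in controls and 229.8, 213 and 273 in FOG1 ki/ki. All 3 FOG1 ki/ki arrays were above all 3 controls, and the pair differences of 0.32, 0.27 and 0.48 had 1 sign. The log2 difference was 0.36 (SE 0.20, adjusted p = 0.9998, and adjusted p = 0.489 with the block). The dimmer probe set, 1424989_at, read 24.9, 34.8 and 42.1 in controls and 25.5, 46.3 and 44.6 in FOG1 ki/ki, where the groups overlapped and the log2 difference was 0.12 (SE 0.34).

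Rasgrp2 encodes the exchange factor that couples calcium to RAP1 in platelets, and its 4 probe sets disagreed on the size of the difference. Probe set 1438932_at read 167, 202 and 198 in controls and 117, 76.2 and 99.5 in FOG1 ki/ki. Every FOG1 ki/ki array lay below every control, with a log2 difference of -0.86 (SE 0.25, 95% interval -1.44 to -0.29, adjusted p = 0.675, and adjusted p = 0.323 with the block). This was the smallest adjusted p among the 23 probe sets, and the pair differences were -0.46, -1.24 and -0.89. Probe set 1442264_at, which is dim, read 32.3, 51.4 and 30.8 in controls and 23.6, 24.6 and 18.1 in FOG1 ki/ki. The groups did not overlap there either, with a log2 difference of -0.49 (SE 0.32, adjusted p = 0.9998) that was -0.73 with a pseudocount of 1 and -0.24 with one of 64.

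The other Rasgrp2 probe sets, which are brighter, overlapped between the groups. Probe set 1438933_x_at read 1090.5, 789 and 1117 in controls and 991, 797 and 1276 in FOG1 ki/ki, a log2 difference of 0.02 (SE 0.22, 95% interval -0.50 to 0.55). Probe set 1417804_at read 401, 467 and 995 in controls and 414, 345 and 772 in FOG1 ki/ki, a log2 difference of -0.25 (SE 0.41). In that probe set both replicate 3 arrays stood above the other 4, and without control replicate 3 its difference turned to 0.14. The probe set lowest against control was not the one with the most signal, and a single value for Rasgrp2 depends on the probe set taken. Whether the probe sets read different transcripts was not tested.

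RefSeq gives Rasgrp2 2 start sites in the table used (build GRCm38.p6). The 250 bases before each start are shown for Rasgrp2, Stim1 and Rasa3, the members with a probe set whose log2 difference was below -0.5. Why the Rasgrp2 probe sets disagree was not tested, and these windows do not bear on it. Capitals mark matches to GATAA, the core that GATA factors bind, or to CCGGAA, a core of ETS factors, on either strand. The windows are chr19:6399625-6399874 and chr19:6401455-6401704, both on the plus strand, for Rasgrp2, chr7:102267569-102267818 on the plus strand for Stim1 and chr8:13677588-13677837 on the minus strand for Rasa3.
Rasgrp2 upstream start: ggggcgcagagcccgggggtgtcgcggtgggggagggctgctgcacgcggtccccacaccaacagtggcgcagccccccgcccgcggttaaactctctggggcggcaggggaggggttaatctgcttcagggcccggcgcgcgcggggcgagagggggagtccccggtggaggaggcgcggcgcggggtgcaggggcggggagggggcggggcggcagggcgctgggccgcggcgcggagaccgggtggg
Rasgrp2 downstream start: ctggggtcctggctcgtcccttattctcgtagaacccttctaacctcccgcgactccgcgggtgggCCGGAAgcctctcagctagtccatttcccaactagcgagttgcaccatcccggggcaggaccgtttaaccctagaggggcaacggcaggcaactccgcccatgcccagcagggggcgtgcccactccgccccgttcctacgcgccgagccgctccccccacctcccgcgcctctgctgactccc
Stim1: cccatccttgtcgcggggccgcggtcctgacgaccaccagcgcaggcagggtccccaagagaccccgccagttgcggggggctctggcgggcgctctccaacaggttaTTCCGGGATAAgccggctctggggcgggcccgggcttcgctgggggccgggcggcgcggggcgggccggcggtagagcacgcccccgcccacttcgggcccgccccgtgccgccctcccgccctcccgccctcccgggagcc
Rasa3: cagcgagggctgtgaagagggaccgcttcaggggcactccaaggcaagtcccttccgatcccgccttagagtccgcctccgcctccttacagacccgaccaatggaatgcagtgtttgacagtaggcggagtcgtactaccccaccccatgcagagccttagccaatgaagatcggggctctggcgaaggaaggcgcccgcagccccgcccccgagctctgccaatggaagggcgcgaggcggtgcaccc

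The upstream Rasgrp2 window and the Rasa3 window held neither motif. The downstream Rasgrp2 window held 1 CCGGAA, 179 to 184 bases before the start. The Stim1 window held 1 GATAA, 132 to 136 bases before the start, next to 1 CCGGAA on the minus strand at 137 to 142 bases, and the matches do not overlap. RefSeq windows were found for 8 of the 9 member genes, 9 windows in all, and 1 held GATAA and 2 held CCGGAA. Of 32851 windows of the same length in the table, 22.6% held GATAA and 12.0% held CCGGAA. A match describes these letters and is not a measured binding site.

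Rasa3, which turns RAP1 off and so opposes CalDAG-GEFI, also stood lower in FOG1 ki/ki. Its only probe set, 1415850_at, read 969, 1278 and 1724 in controls and 816, 720.2 and 974 in FOG1 ki/ki. The groups overlapped at 1 point only, since FOG1 ki/ki replicate 3 was just above control replicate 1, and each FOG1 ki/ki array lay below its same-numbered control. The log2 difference was -0.62 (SE 0.23, 95% interval -1.17 to -0.08, adjusted p = 0.895, and adjusted p = 0.324 with the block), with pair differences of -0.24, -0.81 and -0.81. It was -0.42 without control replicate 3, the FOG1+/+ array, and -0.53 without both replicate 3 arrays. With 1 probe set per gene in the brighter 50%, the blocked adjusted p was 0.104, the lowest for any member in any of the fits, and that fit called 0.835% of 11260 genes.

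Rap1a and Rap1b encode the near-identical GTPases at the centre of the pathway, and RAP1B is the main form in platelets. Rap1a probe set 1424139_at read 1395, 1736 and 2052 in controls and 1257, 1508 and 1722 in FOG1 ki/ki. Each pair was lower, by -0.15, -0.20 and -0.25, but the groups overlapped, since in each group replicate 1 was the lowest array and replicate 3 the highest. The log2 difference was -0.20 (SE 0.19, adjusted p = 0.9998, and adjusted p = 0.528 with the block). Leaving out control replicate 3 gave -0.07, leaving out control replicate 1 gave -0.34, and leaving out the first FOG1 ki/ki array gave -0.08. The second Rap1a probe set, 1448020_at, read 1053, 819 and 1381 in controls and 878.5, 774 and 1263 in FOG1 ki/ki, a log2 difference of -0.16 (SE 0.25), also lower in all 3 pairs.

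Rap1b was close to control in all 3 of its probe sets. Probe set 1435519_at read 3598, 4525 and 3836 in controls and 3481, 3969 and 4164 in FOG1 ki/ki, a log2 difference of -0.04 (SE 0.13, 95% interval -0.35 to 0.27). Probe sets 1435518_at and 1455349_at differed by -0.05 (SE 0.14) and 0.03 (SE 0.14). Signals of 1435518_at ran from 1929.8 to 2277 in controls and from 1869.7 to 2328 in FOG1 ki/ki, and those of 1455349_at from 1894 to 2239.9 and from 1914 to 2445. The intervals leave room for differences of up to -0.37 or 0.36 on the log2 scale in these probe sets.

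Apbb1ip, the gene of the RAP1 effector RIAM, was dim. Probe set 1425269_at read 35.8, 54.7 and 18.0 in controls and 47.9, 46.2 and 44.6 in FOG1 ki/ki. The FOG1 ki/ki arrays lay close together, inside the range of the controls, whose lowest value was replicate 3. The log2 difference was 0.32 (SE 0.37, adjusted p = 0.9998) and 0.04 without control replicate 3. The other probe set, 1443145_at, read between 0.376 and 3.60 on all 6 arrays and was the 1 member outside the brighter 50%, so it gives no usable level.

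Tln1 encodes talin-1, the cytoskeletal protein whose head domain switches the integrin. Its brightest probe set, 1448402_at, read 1999.6, 2763 and 2815 in controls and 2099, 2657 and 3184 in FOG1 ki/ki, a log2 difference of 0.06 (SE 0.20, 95% interval -0.41 to 0.54). Probe set 1436042_at read 306.5, 294 and 317 in controls and 348.5, 386 and 425 in FOG1 ki/ki. There the groups did not overlap, with pair differences of 0.18, 0.37 and 0.40 and a log2 difference of 0.32 (SE 0.18, adjusted p = 0.9998, and adjusted p = 0.493 with the block). The dim probe set 1457782_at, with signals from 20.3 to 75.9, had pair differences of 1.33, -0.36 and -0.66.

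Fermt3 encodes kindlin-3, the kindlin of blood cells. Its brightest probe set, 1456014_s_at, read 1945, 2164 and 2586 in controls and 2111, 2129 and 2973 in FOG1 ki/ki, a log2 difference of 0.10 (SE 0.18, 95% interval -0.33 to 0.52). Probe set 1433964_s_at read 1427, 2062 and 2289 against 1418, 1728 and 2319.5, and 1433963_a_at read 1340.5, 1676 and 2199 against 1345, 1337 and 2038. These differed by -0.08 (SE 0.24) and -0.14 (SE 0.24). The dim probe set 1443641_at read 61, 146 and 173 in controls and 177, 90.1 and 56.7 in FOG1 ki/ki, so its pair differences ran from 1.33 to -1.38. The bright Fermt3 probe sets were highest on the replicate 3 arrays of both groups.

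**Figure D2:**
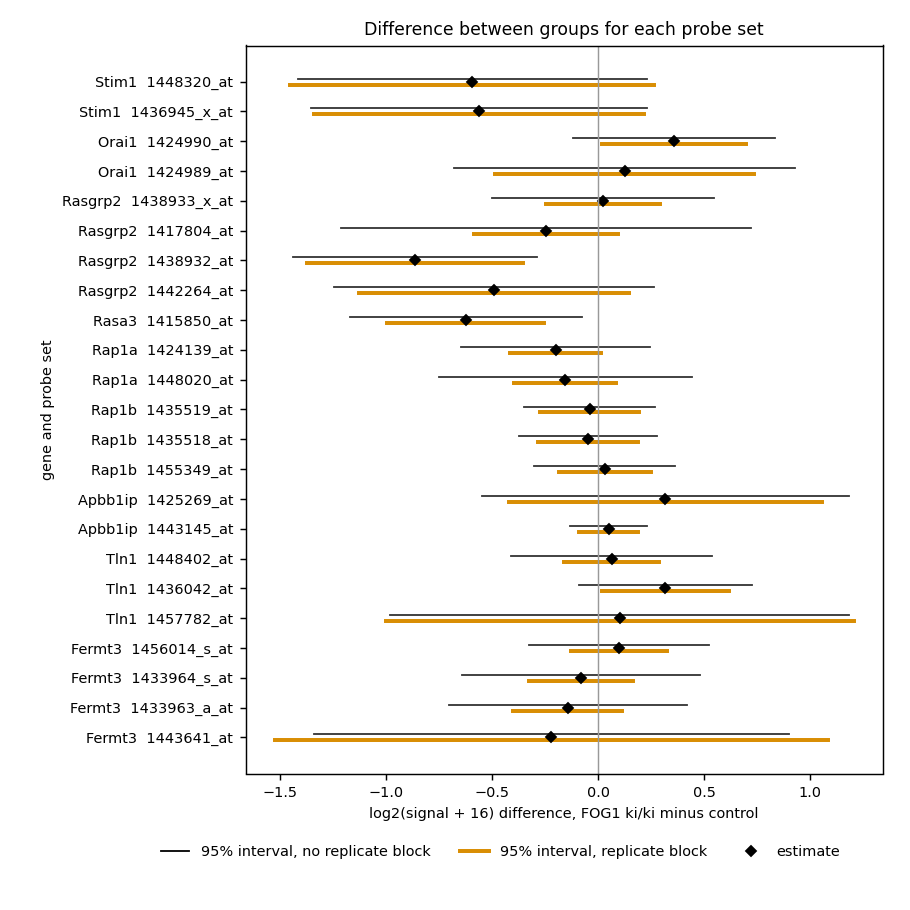
Difference in log2(signal + 16), FOG1 ki/ki minus control, for each of the 23 probe sets (n = 3 arrays per group), with the 95% interval of the limma fit without (thin black) and with (thick orange) the replicate number as a block. The unadjusted intervals exclude 0 for 1438932_at of Rasgrp2 and for Rasa3 in both fits, and for 1424990_at of Orai1 and 1436042_at of Tln1 with the block, and no adjusted p passes.

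Over all 23 probe sets 13 lay below control and 10 above, with a median log2 difference of -0.05 against 0.003 over all probe sets. Within equal replicate numbers, 6 probe sets were lower in all 3 pairs, 26.1% of the 23 against 15.6% of all. They were both of Rap1a, the 1 of Rasa3, 2 of Rasgrp2 and 1 of Stim1. The 3 that were higher in all pairs, 13% against 16.6%, were both of Orai1 and 1 of Tln1. In 14 of the 22 brighter probe sets the replicate 3 arrays differed from the others by more than FOG1 ki/ki differed from control. That is 63.6%, against 67.2% of all probe sets in the brighter 50%.

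For the brightest probe set of each member, the genes whose profile over the 6 arrays was most like it were found by Pearson's r on log2(signal + 16) among 11259 genes. They are given as a description, since with 6 arrays many genes reach a high r. Rasa3 was most like Lpin1 (r = 0.995) and Tbl1x (0.995), and 67 genes had an r over 0.95. Stim1 was most like Pdpk1 (r = 0.998), with 24 genes over 0.95. Rap1b was most like Ppbp, a chemokine of platelet granules (r = 0.993, 26 genes). The brightest Rasgrp2 probe set was most like Vti1b (r = 0.994, 63 genes) and that of Tln1 like Washc2 (r = 0.997, 139 genes). Rap1a was most like Fam50a (r = 0.997, 131 genes), Fermt3 like Rnf6 (r = 0.996, 115 genes), Apbb1ip like Fosl2 (r = 0.996, 28 genes) and Orai1 like Helb (r = 0.99, 35 genes). All of these r share the same 6 libraries.

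Other genes of the pathway were read from 6 lists of 68 genes, each from its brightest probe set. Of these, 65 had a probe set and 59 lay in the brighter 50%, with 35 below control and 24 above and a median log2 difference of -0.07. That is 59.3% below, against 44.9% of 11260 genes and their median of 0.03. None of the 65 passed the limma test over all probe sets, with or without the block, and for 7 of the 59 the unadjusted p was under 0.05, a share of 11.9% where 6.4% of genes on the array reach it. Those 7 were Rap1gap2, Arap3, Sipa1l1, Rassf5, Raph1, Orai2 and Rasgrp3. The groups did not overlap for 4 genes lower in FOG1 ki/ki, where 4.93% of all genes did so, and for 5 genes higher, where 6.32% did. The lower genes were Rasgrp3, Raph1, Itgb1 and the vinculin gene Vcl (-0.12), the last named after its values were seen, and the higher ones Rap1gap2, Arap3, Sipa1l1, Rassf5 and Orai2. In a setting added after the data were seen, with dim probe sets left out and the block used, 1 of the 59 passed, Rap1gap2, where 0.524% of 22518 probe sets and, with 1 probe set per gene, 0.835% of 11260 genes passed.

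Rap1gap2 encodes the RAP1 GTPase-activating protein of platelets, which like RASA3 favours the inactive form. It read 103, 209 and 268 in controls and 424, 497 and 925 in FOG1 ki/ki. All 3 FOG1 ki/ki arrays were above all 3 controls, about 3.03 times higher on the scale of signal + 16. The log2 difference was 1.60 (SE 0.41, 95% interval 0.65 to 2.55), with pair differences of 1.89, 1.19 and 1.73. Its limma adjusted p was 0.599 over all probe sets, 0.115 with the block, 0.322 with 1 probe set per gene (a fit that called 0.151% of genes), and 0.0295 in that last fit with the block, or 0.037 over all brighter probe sets with the block.

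Of the 10 listed GTPase-activating proteins, Rap1gap2 included, 5 lay above control and 5 below. Arap3, whose product is bound by RAP1, read 173, 222 and 208 in controls and 489, 481 and 353 in FOG1 ki/ki, a log2 difference of 1.07 (SE 0.21, adjusted p = 0.428). A second Arap3 probe set in the brighter 50% differed by 0.94. Sipa1l1, of the SPA-1 family of RAP GTPase-activating proteins, read 162, 226 and 221 in controls and 276, 357 and 704 in FOG1 ki/ki, a log2 difference of 0.98 (SE 0.35, adjusted p = 0.865), and another of its probe sets differed by 1.51. The first of these was 0.60 without FOG1 ki/ki replicate 3. For both genes FOG1 ki/ki lay wholly above control. Rasa4 had a log2 difference of -0.47 (SE 0.38). Rap1gap2 and Sipa1l1 thus stood above control and Rasa3 below it. Arap3 is left out of this contrast, since only its binding by RAP1 is given here.

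Of the exchange factors, 6 of 7 in the brighter 50% lay above control and 1 below, and 9 of the 10 had a probe set. Rasgrp3, a relative of Rasgrp2, read 24.5, 27.2 and 21.9 in controls and 9.40, 4.30 and 4.37 in FOG1 ki/ki, with no overlap and a log2 difference of -0.89 (SE 0.22, adjusted p = 0.577). These signals are dim, so the pseudocount sets the size. Rasgrp4, an exchange factor known from mast cells, read 15.3, 37.0 and 102 in controls and 48.5, 149 and 497 in FOG1 ki/ki. Its groups overlapped, and the log2 difference was 1.60 (SE 0.80, adjusted p = 0.9998), or from 0.83 to 2.32 with arrays left out. Rapgef2 differed by 0.17 (SE 0.19), and Rapgef3, which is dim, by -0.17.

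On the calcium side, 13 of 15 genes lay in the brighter 50%, with 7 below and 6 above control. Orai2, a channel related to ORAI1, read 146, 104 and 125 in controls and 282, 213 and 244 in FOG1 ki/ki. The pair differences of 0.88, 0.93 and 0.88 were close to each other, and the log2 difference was 0.90 (SE 0.23, adjusted p = 0.599, and adjusted p = 0.188 with the block). A second Orai2 probe set differed by 0.75. Stim2, the relative of STIM1 that senses small losses from the store, read 448, 772 and 724 in controls and 389.5, 495 and 411 in FOG1 ki/ki, a log2 difference of -0.54 (SE 0.24, adjusted p = 0.9998). The third channel gene of the family, Orai3, differed by 0.07 (SE 0.27). The calcium pump gene Atp2a2 differed by 0.09 and Itpr3, which is dim, by -0.21.

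Of RAP1 effectors and integrin adaptors, 17 of 21 lay in the brighter 50%, with 11 below and 6 above control. Rassf5, whose product RAPL binds active RAP1, read 388, 411 and 255 in controls and 589.5, 669 and 915 in FOG1 ki/ki, a log2 difference of 1.01 (SE 0.25, adjusted p = 0.593). It ran from 0.63 to 1.23 with arrays left out, and a second Rassf5 probe set differed by 1.08. Raph1, encoding lamellipodin, a relative of RIAM, read 109.9, 223 and 135 in controls and 29.9, 92 and 52.4 in FOG1 ki/ki, a log2 difference of -1.25 (SE 0.41, adjusted p = 0.778). A second Raph1 probe set in the brighter 50% differed by -1.06. The groups did not overlap for either gene. Lims1, a partner of integrin-linked kinase, differed by -0.33 (SE 0.19) and paxillin, Pxn, by 0.23 (SE 0.16).

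Of the related GTPases, 4 of 5 lay below control. Rras2 had a log2 difference of -1.02 (SE 0.49), Rap2a -0.29 (SE 0.16), Rap2b -0.24 (SE 0.24) and Rras -0.25 (SE 0.46), each with adjusted p = 0.9998. In their brightest probe sets, all 7 integrin subunit genes lay below control, with a median of -0.09. That median was 0.04 without both replicate 2 arrays. Itgb1 read 867, 1124 and 1112 in controls and 853, 827 and 866 in FOG1 ki/ki, a log2 difference of -0.27 (SE 0.16) with no overlap. The fibrinogen receptor subunit Itgb3 differed by -0.12 (SE 0.17) and Itga6 by -0.04 (SE 0.13). Itga2 of the collagen receptor had a log2 difference of -1.21 (SE 0.72), with pair differences of 0.04, -1.02 and -2.64 and a range from -1.84 to -0.36 with arrays left out.

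**Figure D3:**
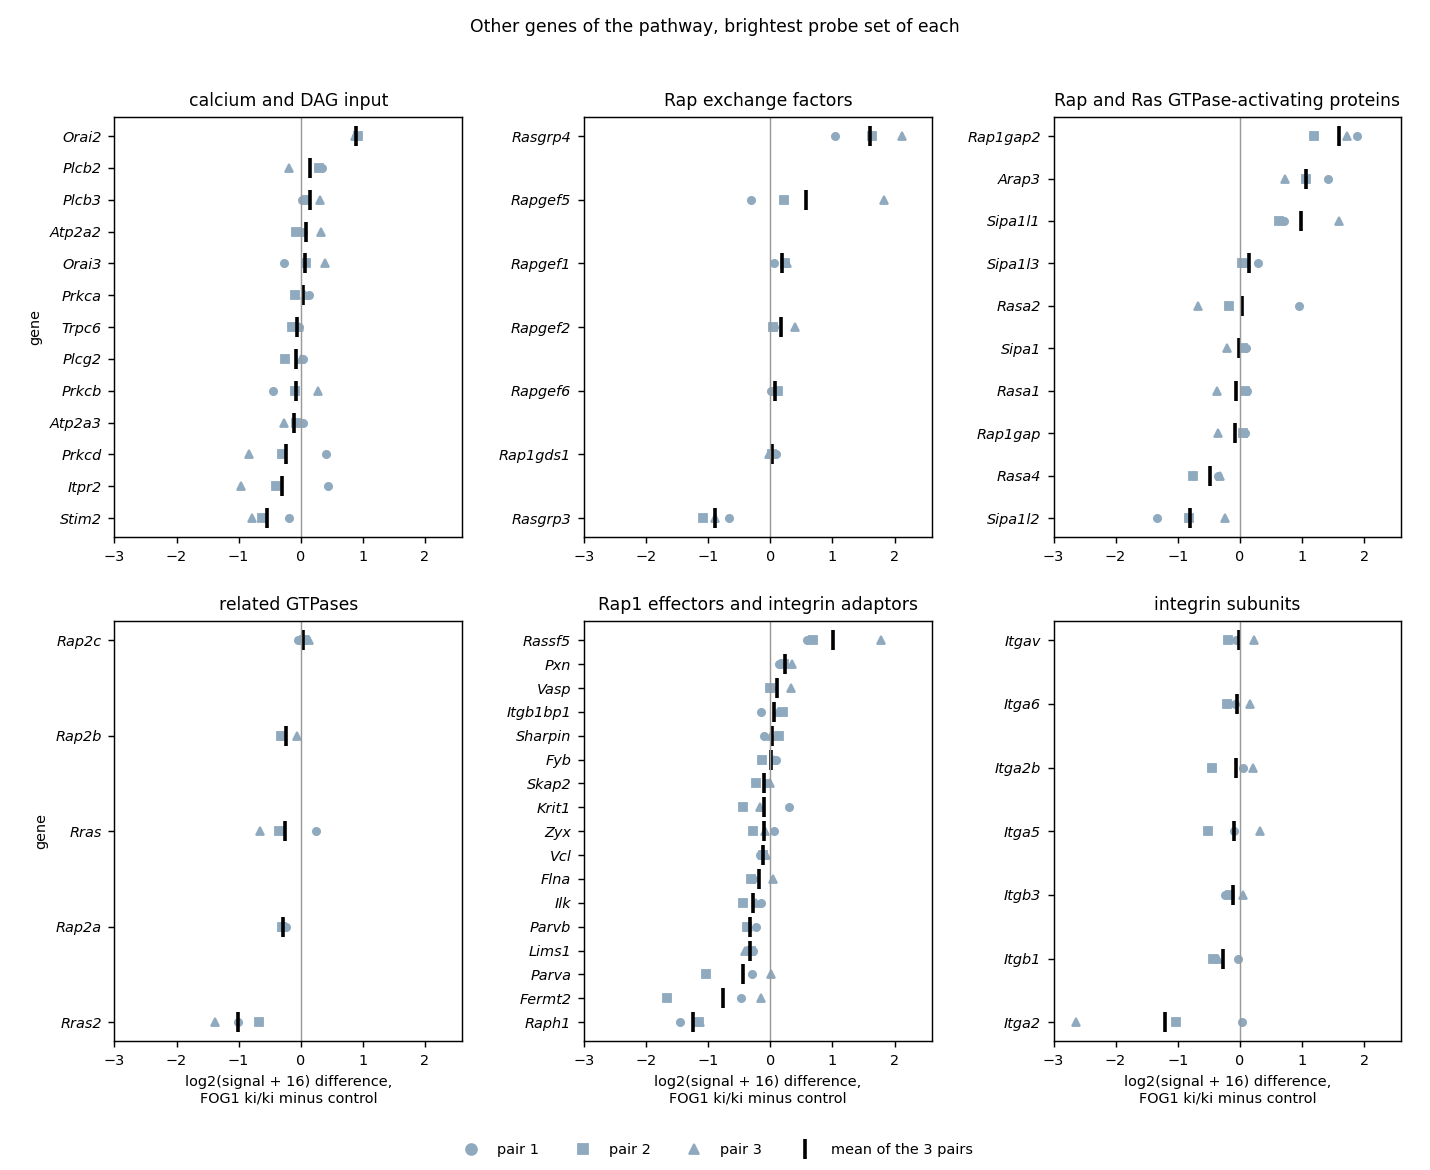
Difference in log2(signal + 16), FOG1 ki/ki minus control, within each replicate number (blue shapes) and as the mean of the 3 pairs (black bar), for the 59 genes of 6 pathway lists in the brighter 50% of the array. Rap1gap2, Arap3, Sipa1l1, Rassf5 and Orai2 are among the genes above 0 in every pair, as are Rasgrp4 and Pxn. Raph1, Rasgrp3 and Rras2 are among those below 0 in every pair, as are Stim2 and Lims1. Further genes also keep their sign in every pair. Over all probe sets of the array, 16.6% were higher and 15.6% lower in all 3 pairs.

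The arrays carried transcripts of other cell types beside those of megakaryocytes. Of 10 megakaryocyte markers 8 had a probe set, and their summed signal was 16244 to 22066 in controls and 14668 to 19360 in FOG1 ki/ki, with 8 of 8 below control (median log2 difference -0.205). Monocyte and macrophage markers summed to 8246 to 14265 and 3946 to 10940, with 10 of 10 below control. Mast cell and basophil markers summed to 235 to 3031 in controls and 4417 to 6234 in FOG1 ki/ki, with 7 of 7 above control. Fcer1a was the largest part on every array, with 1891, 2167.5 and 93.1 in controls and 3317, 3696 and 3912 in FOG1 ki/ki. On FOG1 ki/ki replicate 3, Cpa3 (170), Hdc (19.6) and Mcpt8 (99.4) read below control replicates 1 and 2. Ms4a2 (189) and Fcer1a read above all controls there. Neutrophil markers summed to 2710 to 14474 and 3877 to 14742, with 6 of 8 below control, and fibroblast markers to 192 to 6156 and 125 to 2620, with 6 of 6 fibroblast markers below control. In both groups replicate 3, which includes the FOG1+/+ control, had the lowest neutrophil and fibroblast sums. Endothelial markers summed to 516 to 860 and 481 to 522, with 4 of 6 below control. Of the red cell genes, Hba-a1 and Alas2 read at most 1.90 on any array, while Klf1 read 43.7, 20.1 and 3.04 in controls and 101, 162 and 78.7 in FOG1 ki/ki. The T cell genes Cd3e and Cd3g read at most 10.7 on any array and Cd8a at most 7.84. In the same lymphoid list Cd4 read up to 33.2 (FOG1 ki/ki replicate 3) and Ebf1 up to 119 (control replicate 2). Lymphoid markers summed to 54.5 to 169 and 58.7 to 63.6, and erythroid markers, mostly Epor, to 237 to 809 and 280 to 465. Kindlin-3, RIAM and talin are also made by other blood cells, and the part of these cells in the members' levels was not tested. Rasgrp4 was highest on replicate 3 in both groups, and its relation to the mast cell sum was not tested. In bulk RNA, fewer cells of a type and less RNA per cell cannot be told apart.

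**Figure D4:**
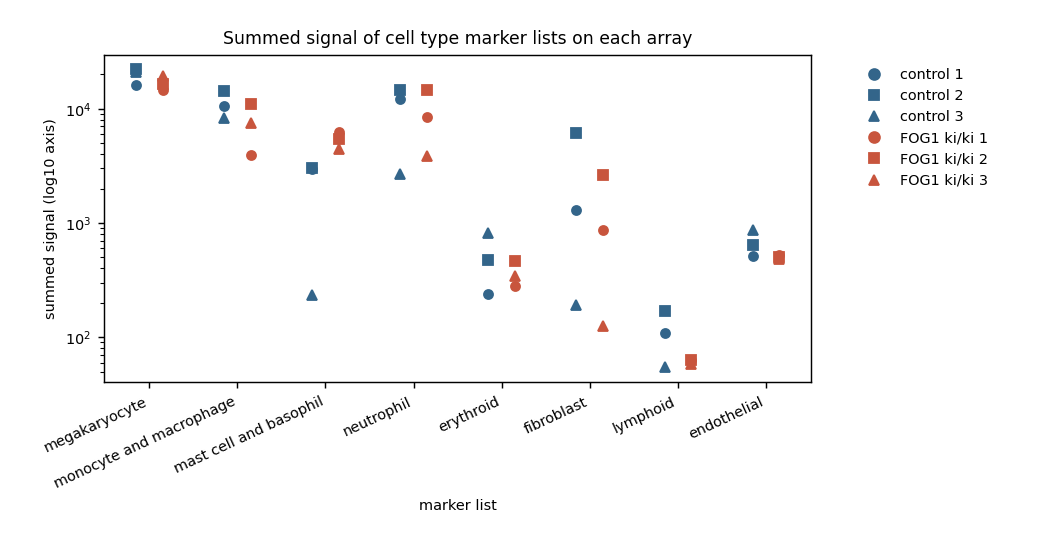
Summed signal (log10 axis) of the brightest probe sets of 8 cell type marker lists on each of the 6 arrays, with control in blue, FOG1 ki/ki in red and shapes for the replicate number. The mast cell and basophil sum lies between 235 and 3031 in controls and between 4417 and 6234 in FOG1 ki/ki, and the megakaryocyte sums overlap. Fcer1a is the largest part of the mast cell and basophil sum on every array.

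Control replicate 1 read 807 for Xist, expressed from the inactive X chromosome of females, and 2.5 for the Y-linked Eif2s3y. The other 5 arrays read at most 4.60 and at least 841. Control replicate 1 thus differed in these sex markers from the other 5 arrays, and it enters every group mean. Without it the log2 difference of Rasa3 1415850_at was -0.83 and that of Tln1 1448402_at -0.10. The median signal of the arrays ran from 5.93 to 12.3. It was lowest on the replicate 3 arrays, 7.75 in control and 5.93 in FOG1 ki/ki, against 10.3 to 12.3 on the others.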

How the data were processed

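The authors deposited 1 linear intensity for each probe set and array, made with MAS5 (version not given), per the submitters' processing notes. RNA was amplified and labelled with NuGEN kits, per the labels' protocols. The 2% trimmed mean of each deposited column was 150.0, so arrays had been scaled to one target, and a change in total RNA per cell cannot be seen. Depth has no meaning for arrays, and their number limits the precision. Probe sets were named by the platform annotation (34958 with 1 symbol, 932 with several). Tests omitted the 64 control probe sets.

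Values were analysed as log2(signal + 16), which understates changes of dim probe sets. All 45037 other probe sets were fitted with limma 3.58.1 in R 4.3.3 (lmFit, eBayes with a trend), without a filter, so every member was tested, and p-values were adjusted by Benjamini-Hochberg. The fit was tested on simulated data with changes larger than any seen for the members. That test therefore does not show how the fit performs at the members' differences. To see whether the shared replicate numbers pair the arrays, each array was set against its group mean, and for equal numbers these deviations correlated at 0.438, 0.648 and 0.597 across the brighter 50% of probe sets, so the numbers were read as pairs. Deviations sum to 0 within a group, which partly builds in the contrast with other numbers, and the origin of the pairing is not given in the sources used here. The fit without the block stayed the main one. Other pseudocounts, scalings, filters and left-out arrays were tried. Pathway genes named in the text were, per list, the 4 with the smallest unadjusted p, plus any that passed. Orai3, Vcl and, for the brightness cut, Rap1gap were named outside this rule. All members and lists were chosen with earlier results of these data known. Promoter windows came from RefSeq (GRCm38.p6). Tables and plots were made in Python 3.11.15 (matplotlib 3.10.9, numpy 2.4.6, pandas 2.3.3).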

Additional observations from a re-analysis of the deposited data

How the results depend on the processing

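No member passed the threshold under any of 19 settings, with adjusted p from 0.104 to 1.0. Of 407 values of the members under these settings, 377 kept their sign and 30 changed it, all when 1 array or 1 replicate number was left out. The 9 probe sets that never changed sign were those of Rasa3, both of Stim1, 1438932_at and 1442264_at of Rasgrp2, 1424139_at of Rap1a, 1424990_at of Orai1, 1425269_at of Apbb1ip and 1436042_at of Tln1. Of 448 values of the named pathway genes, 7 changed sign and 2 came to pass, both of Rap1gap2. With arrays left out, the log2 differences that changed sign ran as follows. For Apbb1ip 1443145_at from -0.0105 to 0.12, Atp2a2 1427250_at from -0.0218 to 0.20, Fermt3 1433963_a_at from -0.34 to 0.0405, Fermt3 1433964_s_at from -0.28 to 0.0831, Fermt3 1443641_at from -0.99 to 0.36, Fermt3 1456014_s_at from -0.0633 to 0.21 and Itga6 1422445_at from -0.14 to 0.0423. For Itpr3 1417297_at from -0.43 to 0.0608, Orai1 1424989_at from -0.0118 to 0.31, Rap1a 1448020_at from -0.36 to 0.033, Rap1b 1435518_at from -0.14 to 0.0296, Rap1b 1435519_at from -0.12 to 0.0551, Rap1b 1455349_at from -0.0628 to 0.11 and Rasgrp2 1417804_at from -0.58 to 0.14. For Rasgrp2 1438933_x_at from -0.15 to 0.19, Rras 1418448_at from -0.71 to 0.19, Tln1 1448402_at from -0.10 to 0.22 and Tln1 1457782_at from -0.51 to 0.48. The cause was not tested. Without any 1 array or replicate number, 0 probe sets passed, against 1 with all arrays.

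The count over all probe sets moved from 1 to 0 with the replicate block, 0 with a pseudocount of 64, 4 without the trend, 49 with median centring, 15 with dim probe sets left out and 17 with 1 probe set per gene. Some choices were combined after seeing the data, and the replicate block then gave 118 calls over the brighter probe sets and 94 with 1 probe set per gene, with 1 pathway gene called in each, Rap1gap2. Fewer features are tested there. Among the members and listed pathway genes, the block changed only the call of Rap1gap2. Signal over background was not measured here, and for probe sets of low signal the pseudocount sets the size of a difference.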
